A study of Mus musculus with 10 samples.

Results

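The genes followed here encode myosin light chains and the kinases that phosphorylate them, measured through messenger RNA sequencing of mouse left atria. The 10 genes were taken by symbol from the 37583 gene rows of the count tables, and comprise the light chains Myl2, Myl3, Myl4, Myl6, Myl7, Myl9, Myl12a and Myl12b and the light chain kinases Mylk and Mylk3. All 10 were found, and all 10 passed the filter on low counts that left 15364 genes for testing. The 10 libraries came from adult animals and fall into 4 groups. Libraries labelled IBR (3, from the drug arm of a series titled after ibrutinib, an inhibitor of Bruton's tyrosine kinase) are set against libraries labelled CTL (3). Libraries labelled KO (2, genotype given as cardiac CSK KO) are set against libraries labelled WT (2). Csk encodes C-terminal Src kinase, which keeps kinases of the Src family inactive. The driver of the knockout, the drug's dose and duration, the strain and the ages in weeks are not stated by the labels, which also do not say that each library came from a separate animal. P-values therefore measure only the spread between these libraries.

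A myosin motor is built from heavy chains, each of which carries an essential and a regulatory light chain on its lever arm. In muscle cells of the atrium the pair is Myl4 (essential) and Myl7 (regulatory), and in the ventricle it is Myl3 and Myl2. Smooth muscle and non-muscle myosins carry Myl6 as the essential chain and Myl9, Myl12a or Myl12b as the regulatory one. Phosphorylation of the regulatory chain by calmodulin-dependent light chain kinases, Mylk3 in heart muscle and Mylk in smooth muscle and many other cells, tunes the contraction of striated muscle and switches on that of smooth muscle. In humans, variants of MYL4 are known from families with atrial fibrillation.

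The targeted gene was not lower in the KO libraries. Csk had 24.7 and 35.5 CPM (counts scaled to library size by the trimmed mean of M values) in KO libraries, against 18.3 and 17.8 CPM in WT libraries (log2 difference 0.74, SE 0.18, adjusted p = 0.0608, edgeR). DESeq2 called Csk as higher in KO libraries (adjusted p = 0.012), where it called 12.8% of genes. Without the filter on low counts edgeR also called it (adjusted p = 0.0372), where it called 4.68% of genes. Reads were counted over whole genes of a mixed tissue, and the labels do not say which part of Csk was deleted. Depth on genes ran between 14907331 and 19960947 counts per library. KO26 and KO337 were the least alike of the replicate pairs (Spearman correlation across genes 0.955, against 0.984 to 0.991 in the other pairs), so KO values are given by library throughout. None of the 8 pairs within a group was near enough to be 1 library deposited in duplicate.

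The atrial pair dominated the light chains in every library. On the scale of CPM per kb of the principal transcript (GENCODE vM21), Myl7 averaged 10450 ± 863 in IBR libraries and 12970 ± 2920 in CTL libraries (SD, n = 3 each). It averaged 4468 ± 1419 in KO libraries and 8121 ± 411 in WT libraries (SD, n = 2 each). Myl4 followed at 8410 ± 934 CPM per kb in IBR and 10350 ± 1714 in CTL libraries, and at 3759 ± 1452 in KO and 7710 ± 1063 in WT libraries. Myl7 stood above Myl4 in 9 of 10 libraries, with WT35 the exception, and their ranges over all libraries overlap. The order of these neighbours was not tested. The heart muscle kinase Mylk3 came next, at 184 to 515 CPM per kb over all libraries, below Myl4 and above Myl12a in 10 of 10 libraries. In KO337 its 184 CPM per kb lay below Myl6 (309) and Myl9 (249.6).

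In mean level a middle tier followed, of the smooth muscle and non-muscle chains Myl12a, Myl6 and Myl9 and the ventricular chain Myl3. Myl12a spanned 141 to 320 CPM per kb, Myl6 spanned 137 to 309 and Myl9 spanned 82.1 to 249.6. Myl12a lay above Myl6 in 8 libraries, Myl6 above Myl9 in 9 and Myl9 above Myl3 in 6, so these neighbours did not keep their order in every library. With lengths over all exons in place of the principal transcript Myl9 moves to rank 4. Myl3 ranged most widely of this tier, between 5.97 and 184.5 CPM per kb, and stood above Myl12b (23.9 to 44.9) in 7 libraries. Mylk (2.31 to 11.02 CPM per kb) and the ventricular chain Myl2 (0.167 to 9.70) were lowest, with Mylk above Myl2 in 6 libraries.

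**Figure D1:**
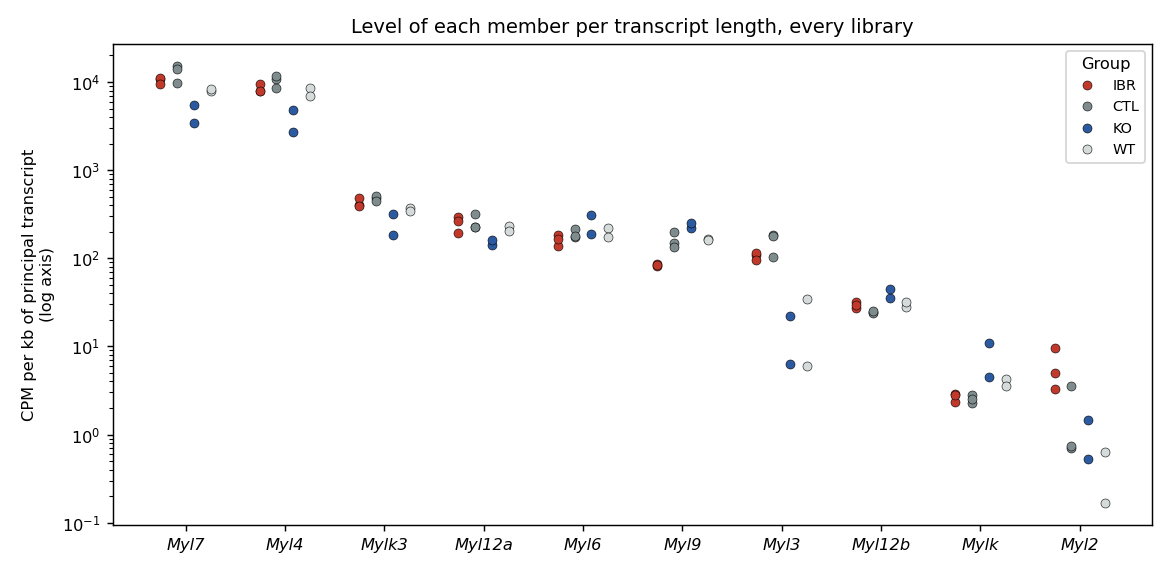
Level of each gene in every library, in CPM per kb of the principal transcript on a log axis, with IBR, CTL, KO and WT libraries drawn from left to right within each gene. Myl7 and Myl4 stay at or above 3464 and 2733 CPM per kb, and Myl2 reaches 9.70.

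Promoters are shown for Myl9, on which the drug comparison turns, and for Myl7 and Myl4, the pair that stood lower together in the KO libraries. Each is the 250 bases before a start of the gene in RefSeq (GRCm38.p6), 5′ to 3′ on the gene's strand, with a match to the CArG box, the motif bound by serum response factor, in capitals. The Myl9 window is chr2:156775214-156775463 on the plus strand, the Myl7 window chr11:5898783-5899032 on the minus strand and the Myl4 window chr11:104550413-104550662 on the plus strand.
Myl9: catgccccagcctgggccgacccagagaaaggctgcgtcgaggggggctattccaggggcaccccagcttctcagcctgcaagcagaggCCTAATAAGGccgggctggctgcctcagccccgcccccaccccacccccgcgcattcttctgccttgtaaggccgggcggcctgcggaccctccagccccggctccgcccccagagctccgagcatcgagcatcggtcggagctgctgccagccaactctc
Myl7: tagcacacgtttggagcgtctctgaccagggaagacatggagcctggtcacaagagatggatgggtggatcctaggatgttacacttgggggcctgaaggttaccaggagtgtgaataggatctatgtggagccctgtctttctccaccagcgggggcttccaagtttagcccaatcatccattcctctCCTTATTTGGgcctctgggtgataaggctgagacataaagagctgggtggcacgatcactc
Myl4: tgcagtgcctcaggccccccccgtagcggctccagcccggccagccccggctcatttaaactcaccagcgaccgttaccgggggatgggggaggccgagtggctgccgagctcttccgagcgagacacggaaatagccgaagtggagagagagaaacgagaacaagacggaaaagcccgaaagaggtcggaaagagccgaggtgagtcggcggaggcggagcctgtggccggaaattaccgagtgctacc

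The CArG match began 161 bases before the start in Myl9 and 61 bases before it in Myl7, and none was found in the Myl4 window. Among the 13 promoter entries of the 10 genes, further matches lay 85 bases before the start of Myl3 and 50 bases before the second start of Myl6. For scale, 1.47% of 32851 mouse promoter windows of the same length held a CArG match on either strand. No entry of the 10 genes held a match to the MEF2 motif, which 2.92% of all windows held. These matches describe letters in the windows, and binding was not measured.

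The drug comparison asks how left atria of IBR animals differ from those of CTL animals. Myl9, the regulatory chain of smooth muscle and some non-muscle myosin, gave the smallest unadjusted p of all 15364 genes. It had 92.6, 96.3 and 94.96 CPM in IBR libraries, against 166.5, 222 and 152 CPM in CTL libraries. Every IBR library lay below every CTL library, and the IBR libraries differed little among themselves. The means were 94.6 ± 1.86 CPM in IBR and 180.4 ± 37.0 CPM in CTL libraries (SD, n = 3 each), a log2 difference of -0.93 (SE 0.15, 95% interval -1.26 to -0.60). Its unadjusted p was 8.21e-05, which over all genes gave an adjusted p = 0.823 with edgeR's quasi-likelihood test, so it was not called at the threshold of 0.05. With no filter on low counts it passed (edgeR, adjusted p = 0.0250), and DESeq2 gave an adjusted p = 0.000288, so the call depends on the filter and on the tool. Leaving out each library in turn moved the log2 difference between -1.04 and -0.75.

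None of the 10 genes was called between IBR and CTL libraries, and neither was any of the other genes (percent called 0). Among all genes, 848 had an unadjusted p under 0.05, DESeq2 called 2 of 15364 (0.013%) and edgeR without the filter called 2 of 24494 (0.00817%), with Myl9 in both pairs. The groups did not overlap for 2 of the 10 genes, where 13.5% of all genes tested did not overlap. Myl9 was the 1 gene lower in all IBR libraries (7.55% of all genes) and Myl12b the 1 gene higher (5.91% of all genes). The median log2 difference of the 10 genes was -0.21, against -0.03 over all genes tested, with 7 of 10 below zero.

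Myl12b, a regulatory chain of non-muscle myosin, stood higher in the drug libraries. It had 68.7, 59.2 and 62.5 CPM in IBR libraries, against 52.2, 51.2 and 53.3 CPM in CTL libraries. The groups did not overlap, and the log2 difference was 0.28 (SE 0.12, edgeR, unadjusted p = 0.0441, adjusted p = 0.823). The CPM ratio of Myl9 to Myl12b, which sets both regulatory chains against each other within a library, was 1.35, 1.63 and 1.52 in IBR libraries, against 3.19, 4.35 and 2.86 in CTL libraries. Because Myl9 was lower and Myl12b higher in every IBR library, this ratio had to separate the groups and adds no further result. The transcripts of Myl9 and Myl12b are 86.5% identical over 517 aligned bases and those of Myl12a and Myl12b 96.6% identical over 552, so reads could be shared or lost between them; counts of Myl12a and Myl12b are uncertain for that reason.

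The atrial chains overlapped between IBR and CTL libraries. Myl4 had 7408, 8948 and 7436 CPM in IBR libraries, against 10260, 11070 and 7954 CPM in CTL libraries. Myl7 had 6309, 6589 and 5601 CPM in IBR libraries, against 8990, 8260 and 5709 CPM in CTL libraries. In both genes CTL3 fell within the IBR range while CTL1 and CTL2 stood above it. The log2 differences were -0.30 for Myl4 (SE 0.25, edgeR, adjusted p = 0.842) and -0.31 for Myl7 (SE 0.24, edgeR, adjusted p = 0.828), and the 95% intervals of -0.86 to 0.26 and -0.85 to 0.22 leave room for a change in either direction.

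The ventricular pair varied between libraries. Myl3 had 101, 108 and 88.4 CPM in IBR libraries, against 173, 169 and 97.6 CPM in CTL libraries, and the groups overlapped through CTL3 (log2 difference -0.56, SE 0.57, edgeR, adjusted p = 0.874). Myl2 had 2.90, 4.42 and 8.62 CPM in IBR libraries, against 0.626, 3.17 and 0.664 CPM in CTL libraries. CTL2 stood inside the IBR range, and the log2 difference of 1.86 (SE 0.71, edgeR, unadjusted p = 0.0251, adjusted p = 0.823) rests on 47, 77 and 141 counts in IBR libraries, against 11, 44 and 11 counts in CTL libraries. Of 3 markers of ventricular muscle, the transcription factor Irx4 was at most 0.144 CPM in every library, Hey2 had 1.11, 0.689 and 0.917 CPM in IBR and 0.228, 0.721 and 0.725 CPM in CTL libraries, and Myh7 had 133, 78.1 and 113 CPM in IBR and 129, 163.5 and 257 CPM in CTL libraries. The part of ventricular cells in the Myl2 values was not tested.

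Of the remaining genes, both kinases and both other chains overlapped between IBR and CTL libraries. Mylk3 had 1470, 1764 and 1445 CPM in IBR and 1778, 1902 and 1630 CPM in CTL libraries (log2 difference -0.18, SE 0.21, edgeR, adjusted p = 0.886). Mylk had 22.8, 18.2 and 21.8 CPM in IBR and 18.0, 22.1 and 19.7 CPM in CTL libraries (log2 difference 0.07, SE 0.27, edgeR, adjusted p = 0.972). Neither kinase stood apart between the groups. Myl6 spanned 90.9 to 121 CPM in IBR and 117 to 142 CPM in CTL libraries, and Myl12a spanned 377 to 572 CPM in IBR and 440 to 620 CPM in CTL libraries. Transcripts of Myl6 are 95.6% to 99.3% identical to 5 pseudogenes in the count tables, which makes its counts uncertain.

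**Figure D2:**
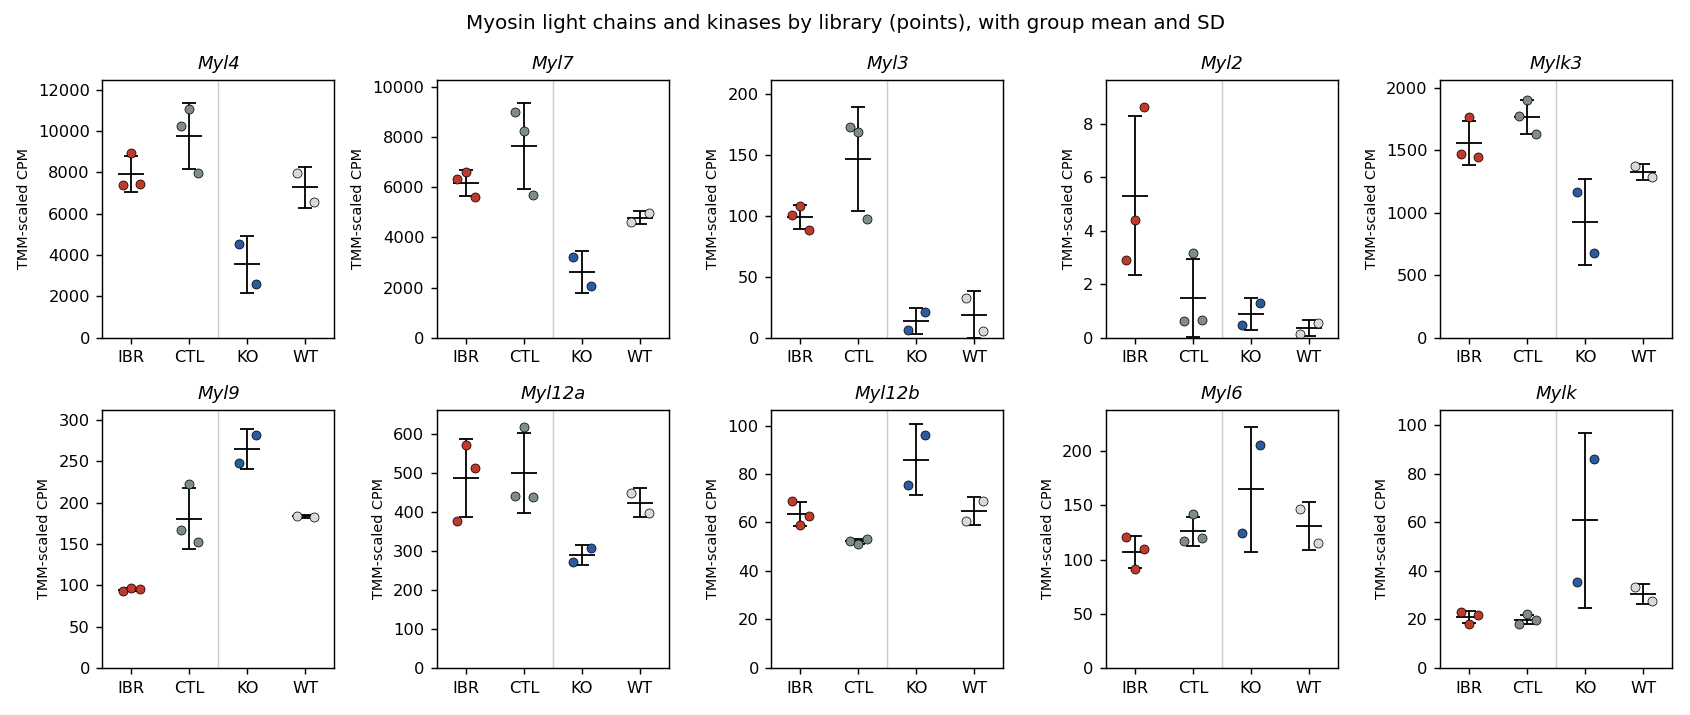
CPM of each gene by library (points), with the group mean and SD (bars), in IBR against CTL (3 libraries each) and KO against WT (2 each). Myl9 lies at 92.6 to 96.3 CPM in IBR libraries, below all CTL libraries, and at 247.5 and 282 CPM in KO libraries, above both WT libraries.

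The summed CPM of 9 markers of smooth muscle and pericytes was 498 to 588 in IBR libraries and 542 to 586 in CTL libraries, and 0 of the 9 were called. The sum is carried by Smtn and Rgs5. Of the 9, 4 had a positive and 5 a negative log2 difference, with a median of -0.06, and Lmod1 alone did not overlap (log2 difference 0.66). The largest negative differences were -0.76 for Cnn1, -0.43 for Acta2 and -0.21 for Smtn. Myh11, the smooth muscle heavy chain, had 10.5, 8.67 and 11.8 CPM in IBR libraries, against 8.48, 11.5 and 9.18 CPM in CTL libraries. The 7 fibroblast markers summed to 1441 to 2141 CPM in IBR and 937 to 1378 CPM in CTL libraries, the 8 macrophage and leukocyte markers to 232 to 397 CPM in IBR and 184 to 210 CPM in CTL libraries, and the 8 cardiomyocyte markers to 29670 to 34310 CPM in IBR and 32630 to 41300 CPM in CTL libraries. The part of these cell types in the result was not tested. In bulk tissue, fewer cells of a type and less RNA per cell cannot be told apart. Per 1000 CPM of the cardiomyocyte markers of the same library, Myl9 stood at 3.12, 2.81 and 3.16 in IBR libraries, against 4.32, 5.39 and 4.67 in CTL libraries, and the groups again did not overlap.

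The genotype comparison asks how left atria labelled KO differ from WT. None of the 10 genes was called (0 of 10, where 2.21% of all genes tested were called, 1.31% as higher and 0.898% as lower), and the number of genes called over the whole table ran from 14 without WT35 to 3933 without KO26. The groups did not overlap for 7 of the 10 genes, where 53.2% of all genes did not overlap with 2 libraries a group. For 4 of the 10 genes the KO libraries were lower (Myl4, Myl7, Mylk3 and Myl12a), as in 26.9% of all genes. For 3 of the 10 they were higher (Myl9, Myl12b and Mylk), as in 26.3% of all genes. The median log2 difference of the 10 genes was -0.08, against 0.01 over all genes tested.

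The 2 atrial chains and the heart muscle kinase stood lower in KO libraries. Myl4 had 4513 and 2577 CPM in KO26 and KO337, against 7980 and 6562 CPM in WT35 and WT338 (log2 difference -1.04, SE 0.31, 95% interval -1.73 to -0.35, edgeR, adjusted p = 0.0893). Myl7 had 3228 and 2044 CPM in KO libraries, against 4620 and 4963 CPM in WT libraries (log2 difference -0.86, SE 0.30, edgeR, adjusted p = 0.115). Mylk3 had 1169 and 680 CPM in KO libraries, against 1375 and 1285 CPM in WT libraries (log2 difference -0.53, SE 0.26, edgeR, adjusted p = 0.227). In all 3 genes KO337 was the lowest library and KO26 lay between it and the WT libraries.

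DESeq2 called Myl4 and Myl7 as lower (adjusted p = 0.00394 and 0.0147) and Mylk as higher (adjusted p = 0.0473) in KO libraries, where it called 12.8% of 14470 genes. Without the filter on low counts edgeR called Myl4 (adjusted p = 0.0323), where it called 4.68% of 24494 genes. With KO337 as the lone KO library, assumed to vary like the other groups, edgeR called 7 of the 10 genes, where it called 24.3% of 16181 genes. With KO26 as the lone KO library it called 0 of the 10. The log2 difference of Myl4 was -0.71 (SE 0.23) with KO26 alone and -1.51 (SE 0.25) with KO337 alone, and that of Mylk3 was -0.21 (SE 0.18) and -0.98 (SE 0.20).

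**Figure D3:**
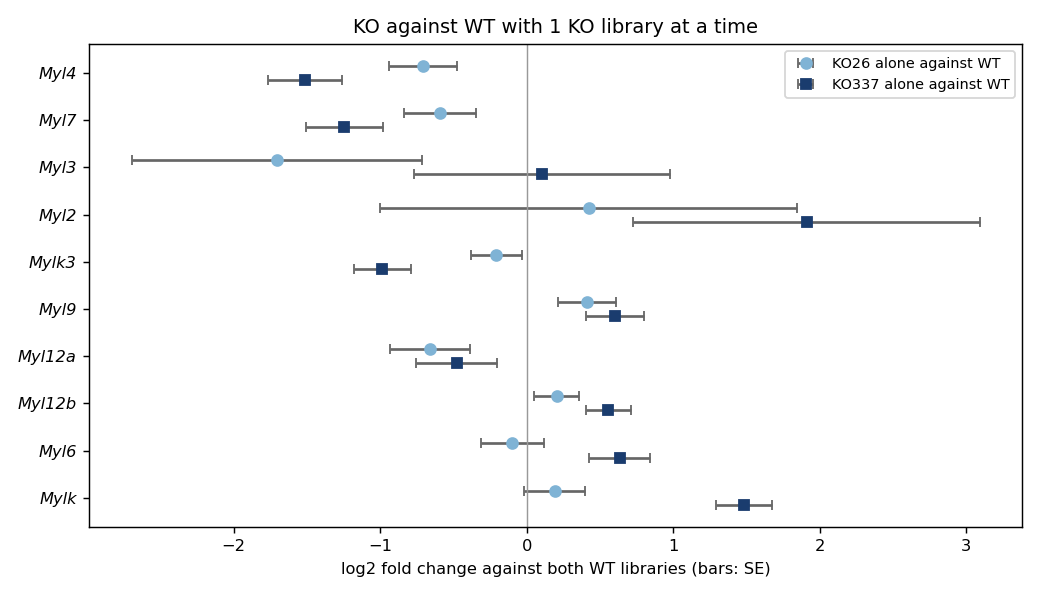
Fitted log2 difference of each gene when a single KO library is set against both WT libraries (circles, KO26; squares, KO337; bars, SE). Myl2, Myl4, Myl7, Myl9, Mylk3, Myl12b and Mylk lie farther from zero with KO337, Myl12a lies farther with KO26, and Myl6 and Myl3 change sides between the libraries.

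Of the 5 chains and kinases of smooth muscle and non-muscle myosin, Myl9, Myl12b and Mylk stood higher in KO libraries. Myl9 had 247.5 and 282 CPM in KO libraries, against 184 and 182 CPM in WT libraries (log2 difference 0.53, SE 0.18, edgeR, adjusted p = 0.114). Myl12b had 75.5 and 96.2 CPM in KO libraries, against 60.7 and 68.7 CPM in WT libraries (log2 difference 0.41, SE 0.15, edgeR, adjusted p = 0.128). Mylk had 35.3 and 86.2 CPM in KO26 and KO337, against 33.3 and 27.7 CPM in WT libraries (log2 difference 1.00, SE 0.33, edgeR, adjusted p = 0.108). KO libraries lay above WT libraries in all 3 genes, but the distance for Mylk was set by KO337, since the log2 difference was 0.19 (SE 0.21) with KO26 alone and 1.48 (SE 0.19) with KO337 alone.

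Of the other non-muscle chains, Myl6 overlapped between the groups and Myl12a stood lower in KO libraries. Myl6 had 124 and 205.5 CPM in KO libraries, against 147 and 115 CPM in WT libraries (log2 difference 0.33, SE 0.24, edgeR, adjusted p = 0.405; -0.10 with KO26 alone and 0.63 with KO337 alone). Myl12a had 272 and 308 CPM in KO libraries, against 450 and 398 CPM in WT libraries (log2 difference -0.55, SE 0.24, edgeR, adjusted p = 0.186). Exons of Myl12a share 207 bases with exons of Myom1 on the opposite strand, and the counting took no account of strand, so reads of the pair cannot be told apart there. Myom1, which encodes an M-band protein of the sarcomere, had 1075 and 710 CPM in KO libraries, against 1620 and 1596 CPM in WT libraries, and the part of its reads in the Myl12a values was not tested.

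The ventricular chains did not separate KO from WT libraries beyond their spread. Myl3 had 5.98 and 20.9 CPM in KO libraries, against 32.4 and 5.60 CPM in WT libraries, and the fitted log2 difference of -0.50 (SE 0.72, edgeR, adjusted p = 0.697) turned to 1.27 without WT35 and to 0.11 without KO26. Myl2 had 0.464 and 1.31 CPM in KO libraries, against 0.148 and 0.566 CPM in WT libraries. These Myl2 values rest on 8 and 29 counts in KO libraries and on 3 and 9 counts in WT libraries, and the groups overlapped (log2 difference 1.39, SE 1.05, edgeR, adjusted p = 0.433).

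**Figure D4:**
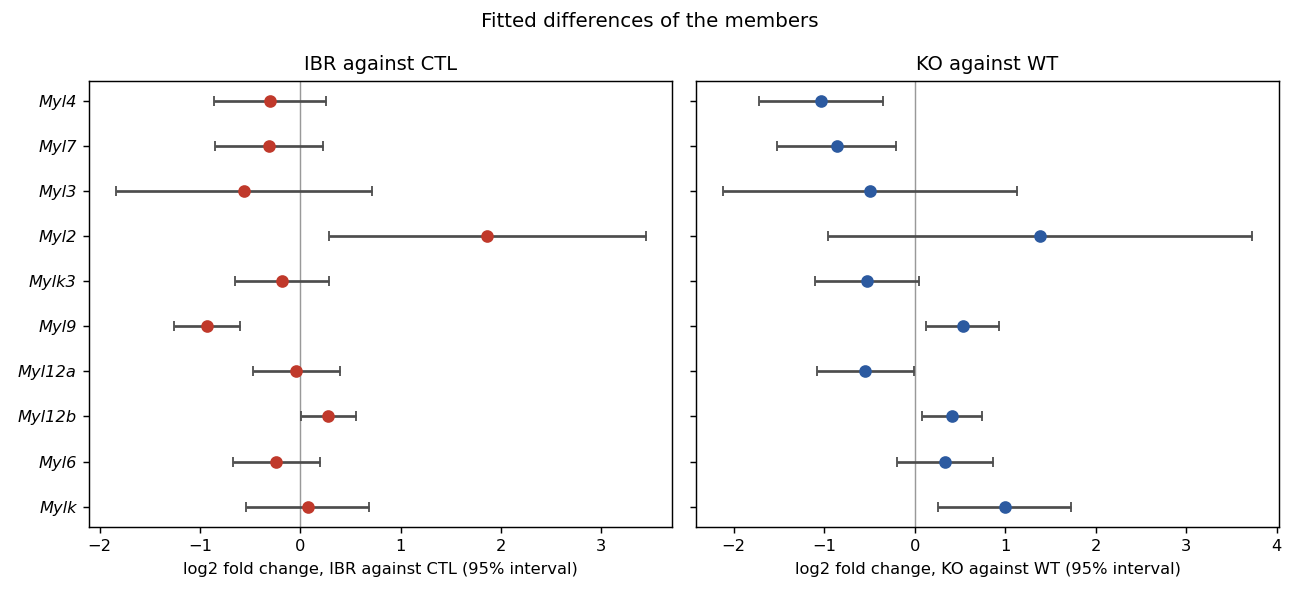
Fitted log2 differences (points) with 95% intervals (bars) of the 10 genes, for IBR against CTL on the left and KO against WT on the right. Myl9 lies at -0.93 for IBR against CTL and at 0.53 for KO against WT, and Myl2 and Myl3 have the widest intervals.

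Of the lists of cell type markers, some stood apart between KO and WT libraries and others overlapped. The 8 cardiomyocyte markers summed to 26330 and 15330 CPM in KO26 and KO337, against 36840 and 35940 CPM in WT35 and WT338. All 7 that were tested stood lower in both KO libraries than in WT libraries, as 26.9% of all genes did. The median log2 difference of these markers was -0.90, with 0 called. The eighth, Tnnc1, was at most 0.116 CPM in every library, although heart muscle is known to express it. The 8 macrophage and leukocyte markers summed to 1048 and 2886 CPM in KO and 310.5 and 306 CPM in WT libraries. Of the 8, 4 were called higher, where 1.31% of all genes were, and 7 lay higher without overlap, where 26.3% of all genes did. The 7 fibroblast markers summed to 2857 and 9695 CPM in KO and 2464 and 2204 CPM in WT libraries, with 0 called. All 7 lay higher without overlap, as 26.3% of all genes did. The 9 smooth muscle and pericyte markers summed to 648 and 1004 CPM in KO and 709 and 647 CPM in WT libraries, with 0 called. Their median log2 difference was 0.77, with 7 positive and 2 negative. Myh11, Lmod1 (3.56) and Cspg4 (0.86) lay higher without overlap and Smtn (-0.55) lower, where 26.3% and 26.9% of all genes did. Tagln had 11.2 and 153 CPM in KO and 13.1 and 8.43 CPM in WT libraries, and Acta2 had 70.9 and 204 CPM in KO and 48.8 and 112 CPM in WT libraries. The 4 endothelial markers all overlapped between KO and WT libraries, with a median log2 difference of 0.14. Of the 5 atrial cardiomyocyte markers tested, 4 were negative and 1 positive, with a median of -0.58. Of these 5, 2 lay lower without overlap, where 26.9% of all genes did. The part of cell composition in the differences of the light chains and kinases was not tested.

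The heart muscle genes, and Myl9 beside them, were also set against the cardiomyocyte markers of the same library. Per 1000 CPM of those markers, Myl7 stood at 123 and 133 in KO libraries, against 125 and 138 in WT libraries, and the groups overlapped. Myl4 stood at 171 and 168 in KO libraries, against 217 and 183 in WT libraries, and remained lower. Mylk3 stood at 44.4 and 44.3 in KO libraries, against 37.3 and 35.8 in WT libraries, and was higher in both KO libraries on this scale. Myl9 stood at 9.40 and 18.4 in KO libraries, against 5.01 and 5.07 in WT libraries. The marker sum itself was lower in KO libraries (26330 and 15330 CPM, against 36840 and 35940 CPM in WT libraries). This raises every ratio in the KO libraries, so the distance for Myl9 is larger here than in CPM. With 2 libraries a group these ratios were not tested.

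**Figure D5:**
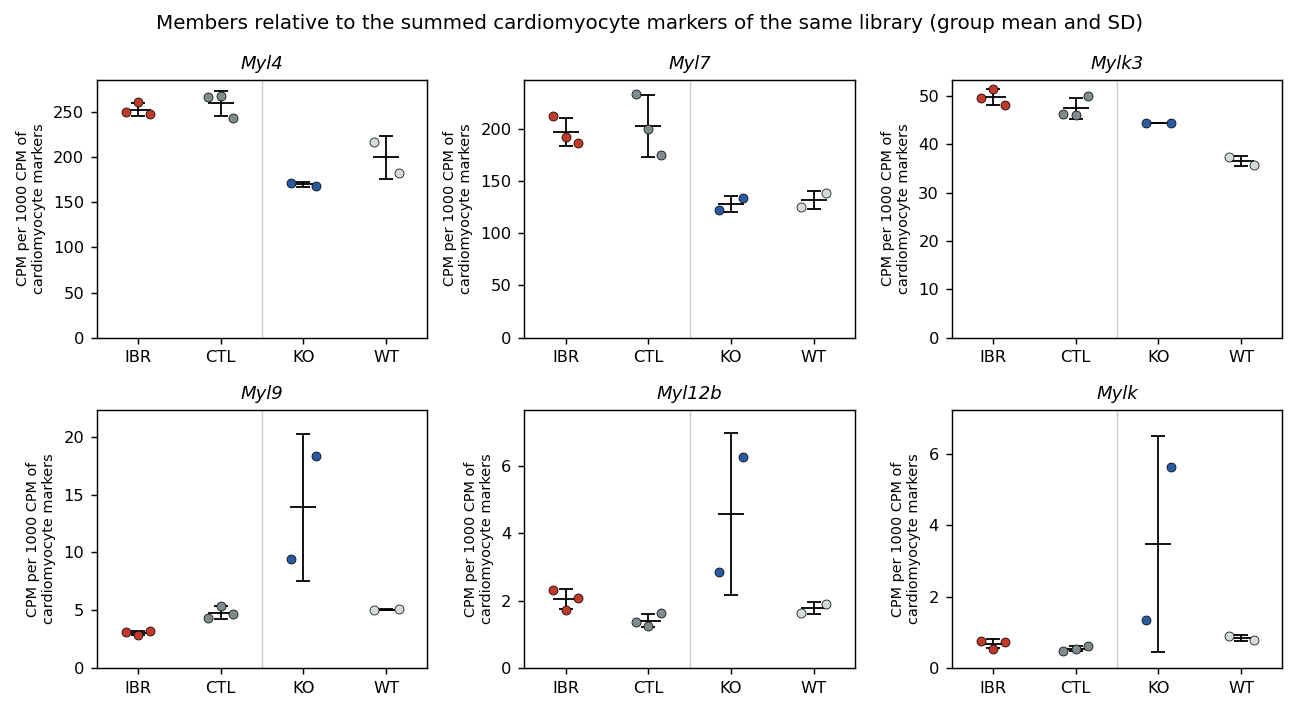
CPM of 6 of the genes per 1000 CPM of the summed cardiomyocyte markers of the same library (points), with the group mean and SD (bars). On this scale Myl7 overlaps between KO and WT libraries, Mylk3 is higher in KO libraries, and Myl9 is lower in IBR than in CTL libraries and higher in KO than in WT libraries. The marker sum is lower in both KO libraries than in WT libraries, which raises every ratio in the KO libraries.

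Shares among the light chains followed here separated KO from WT libraries for Myl7 and Myl4 and overlapped between IBR and CTL libraries. On the CPM per kb scale, Myl7 made up 97.2%, 96.4% and 96.1% of the 5 regulatory chains in IBR libraries, against 97.4%, 96.3% and 96.2% in CTL libraries. It made up 93.3% and 88.4% in KO libraries, against 94.9% and 95.5% in WT libraries. Among the essential chains Myl3, Myl4 and Myl6, which leave out Myl1, Myl4 made up 96.1% and 89.2% in KO26 and KO337, against 97.1% and 97.5% in WT libraries, and 96.4% to 97.4% in IBR libraries, against 96.7% to 96.8% in CTL libraries. KO libraries were lower in both shares, with KO337 the farther. The CPM per kb ratio of Mylk3 to Mylk was 70.1 and 16.7 in KO libraries, against 87.4 and 98.3 in WT libraries. Because Mylk3 was lower and Mylk higher in both KO libraries, this ratio had to separate the groups.

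The difference between both effects, IBR minus CTL against KO minus WT, was tested for each gene. Myl9, lower in all IBR libraries and higher in both KO libraries than in their controls, had a difference of -1.46 on the log2 scale (SE 0.24, 95% interval -1.98 to -0.94, unadjusted p = 8.44e-05). It ranked 9 of 15364 genes by p and was not called by edgeR (adjusted p = 0.134), where 0.026% of all genes were called. It was called by DESeq2 (adjusted p = 3.13e-05, where 0.949% of genes were called), by edgeR without the filter on low counts (adjusted p = 0.00386, where 0.343% were called) and by edgeR without KO26 (adjusted p = 0.00381, where 9.67% were called). The other 9 genes had adjusted p-values between 0.515 and 0.990 in this test (edgeR). Without KO26, Myl4 and Mylk also passed it.

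Other genes of the pathway were followed in lists of light chains, heavy chains, kinases, phosphatase subunits and cofactors of serum response factor. In none of these lists was a gene called in either comparison, where 0 percent of all genes were called between IBR and CTL and 2.21% between KO and WT. Of the other light chains, 3 of 4 were tested, and Myl10 had no count in any library. Myl1, an essential chain of fast skeletal muscle, had 407, 436 and 396 CPM in IBR and 461, 695 and 457 CPM in CTL libraries, and 282 and 150.5 CPM in KO and 394.5 and 328 CPM in WT libraries. It lay lower without overlap in both comparisons, as 7.55% of all genes did in the drug comparison and 26.9% in the genotype comparison. Its log2 difference was -0.38 between IBR and CTL libraries (SE 0.24, edgeR, adjusted p = 0.824). Between KO and WT libraries its log2 difference was -0.74 (SE 0.30, edgeR, adjusted p = 0.154). Myl6b, an essential chain of slow muscle and other cells, differed by 0.13 for KO against WT (SE 0.34, edgeR, adjusted p = 0.841).

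The 7 heavy chains had a median log2 difference of 0.09 for IBR against CTL and of 0.04 for KO against WT, against -0.03 and 0.01 over all genes tested. Myh6, the main heavy chain of the atrium, had 28580 and 12880 CPM in KO and 36530 and 34120 CPM in WT libraries (log2 difference -0.77, SE 0.38, edgeR, adjusted p = 0.225). Myh11 had 12.2 and 70.5 CPM in KO and 11.3 and 7.80 CPM in WT libraries (log2 difference 2.11, SE 0.63, edgeR, adjusted p = 0.0910), a distance set by KO337, since it was 0.32 with KO26 alone. Myh7, the slow heavy chain, had 705 and 149 CPM in KO and 856 and 291 CPM in WT libraries. Myh9, a non-muscle heavy chain, had 274 and 545.5 CPM in KO and 276 and 307 CPM in WT libraries. Both overlapped between the groups.

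Among 10 other kinases of the light chains the median log2 difference for KO against WT was 0.04, with 6 positive and 4 negative. Mylk4, a further light chain kinase, had 423 and 197 CPM in KO and 623.5 and 610 CPM in WT libraries (log2 difference -0.99, SE 0.44, edgeR, adjusted p = 0.193). Cit, a kinase of dividing cells, had 4.06 and 9.74 CPM in KO and 3.02 and 3.96 CPM in WT libraries (log2 difference 0.99, SE 0.44, edgeR, adjusted p = 0.190). With 1 library left out, the log2 difference ran from -1.66 to -0.56 for Mylk4 and from 0.20 to 1.47 for Cit. Among 7 genes of the light chain phosphatase and its inhibitors the median was 0.08. Ppp1r12b, the targeting subunit of heart muscle, had 394 and 287 CPM in KO and 536 and 542.5 CPM in WT libraries (log2 difference -0.66, SE 0.21, edgeR, adjusted p = 0.0974). Ppp1cb, the catalytic subunit, had 627 and 511 CPM in KO and 780 and 791 CPM in WT libraries (log2 difference -0.47, SE 0.22, edgeR, adjusted p = 0.217). Without overlap, 2 of the 10 kinases lay higher and 2 lower in KO libraries, and 0 of the 7 phosphatase genes lay higher and 3 lower, where 26.3% and 26.9% of all genes did.

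Of the 7 genes of serum response factor, its cofactors and the MEF2 factors, 5 were negative for KO against WT and the median log2 difference was -0.30, against 0.01 over all genes tested. Mrtfa (older symbol Mkl1), an actin-regulated cofactor, had 15.9 and 39.1 CPM in KO and 9.89 and 12.2 CPM in WT libraries (log2 difference 1.32, SE 0.36, edgeR, adjusted p = 0.0732). Myocd, a cofactor of heart and smooth muscle, had 86.8 and 42.4 CPM in KO and 153 and 135 CPM in WT libraries (log2 difference -1.16, SE 0.35, edgeR, adjusted p = 0.0923). The 2 cofactors thus stood on opposite sides of WT. With 1 library left out, the log2 difference ran from 0.51 to 1.81 for Mrtfa and from -1.78 to -0.75 for Myocd. DESeq2 called Mrtfa, Myocd, Myh11 and Ppp1r12b in this comparison (adjusted p = 0.0110, 0.0161, 0.00655 and 0.0137), where it called 12.8% of 14470 genes.

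The genes most like 3 of the light chains were sought over the 10 libraries, by the root mean square difference of log2 CPM centred within each experiment, among 11878 genes. For Myl7 these were Ndufa8 (0.07), Ndufc2 (0.08) and Ndufaf5 (0.08), which encode subunits and an assembly factor of mitochondrial complex I. Ndufa8 had 125 and 73.3 CPM in KO and 169 and 161 CPM in WT libraries. For Myl9 the nearest genes were farther off, Gnal (0.22), Rpsa-ps10 (0.23) and Phlda1 (0.23). Phlda1 had 15.7, 12.4 and 16.9 CPM in IBR libraries, against 23.6, 32.4 and 23.3 CPM in CTL libraries, while its 39.5 and 31.9 CPM in KO libraries overlapped the 36.1 and 34.5 CPM in WT libraries. For Myl2 they were Pmaip1 (0.62), Adm (0.71) and Gpr65 (0.75).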

How the data were processed

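Poly(A) RNA of 10 left atrial libraries was sequenced (directional kit per the labels). The authors deposited unnormalized gene counts. STAR, HTSeq, edgeR and the build mm9 are named in the submitters' processing notes, without versions in the sources used here, and the counting ignored strand, per the names of the deposited files. Of 37583 identifiers, 87.4% matched a symbol. Counts were fitted with edgeR 4.0.16 in R 4.3.3 (filterByExpr with minimum count 10 and total 15; TMM scaling; 1 quasi-likelihood fit of all 10 libraries with a mean per group, 6 residual degrees of freedom), and p-values were adjusted by Benjamini-Hochberg over 15364 genes. "Called" means an adjusted p under 0.05. On simulated counts, the fit for IBR against CTL recovered 46 of 100 2-fold and 83 of 100 4-fold changes, with 8 false calls. For KO against WT it recovered 29 of 100 2-fold and 70 of 100 4-fold changes, with 13 false calls. A gene not called can therefore still differ. DESeq2 1.42.0 and other settings were alternatives. Lengths and overlaps came from GENCODE vM21 (not mm9), identity from blastn 2.17.0 and promoters from RefSeq. Counting error alone gives a floor of 3 counts, 0.15 to 0.201 CPM per library. The genes and lists were chosen with earlier results of these data known. One pathway list is not reported here. From each of the others the genes named were those called, or else the 2 of smallest p in KO against WT; Csk, Myh6, Myh7, Myh9 and Myh11 were always named.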

Additional observations from a re-analysis of the deposited data

How the results depend on the processing

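Neither RLE size factors nor upper quartile scaling moved a call of the 10 genes, and no scaling moved the median of all genes by over 0.1. Genes called between KO and WT numbered 339 (336 with RLE and 252 with upper quartile scaling), 1146 without the filter on low counts, 1858 with DESeq2 and 0 with that experiment fitted on its own. Leaving out 1 library gave 14 to 3933 (CTL1 101, CTL2 121, CTL3 162, IBR1 100, IBR2 158, IBR3 19, WT35 14, WT338 21, KO26 3933, KO337 55). Between IBR and CTL 0 were called, but 2 without the filter and 2 with DESeq2, and 0 without any 1 library. For the difference of both effects 4 were called, but 0 with upper quartile scaling, 84 without the filter, 143 with DESeq2 and 0 to 1564 with 1 library left out, 1564 being without KO26. The replicate block, fitted because IBR and CTL share numbers, called 0 genes for IBR against CTL and 0 for the difference. Same-numbered libraries correlated at 0.016, 0.16 and 0.032 in their deviations from the group means. IBR2 and IBR3 correlated best with the same-numbered CTL library, and IBR1 with CTL3 (0.18). With 3 libraries a group such deviations constrain each other, so these values cannot decide whether the shared numbers mark pairs. WT and KO share no number.

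Among the named genes, 464 of the recomputed values kept direction and side of the threshold, 29 came to pass it and 11 turned direction. Myl12a for IBR against CTL turned from -0.04 to 0.0014 without the filter, and ran from -0.17 to 0.14 with 1 library left out. For KO against WT with 1 library left out, Myl3 ran from -1.71 to 1.27, Myl6 from -0.10 to 0.63, Myh7 from -1.97 to 0.54, Myh9 from -0.11 to 0.89 and Myl6b from -0.029 to 0.30. The cause was not tested. With 2 libraries a group and a shared spread (coefficient of variation 0.221) below that of WT with KO alone (0.291), p-values for KO against WT can be too small. The shared spread lay above that of CTL with IBR alone (0.167), so p-values for IBR against CTL can be too large. With that experiment fitted on its own, edgeR called 0 genes and Myl9 had an adjusted p = 0.513.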

Other observations

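Levels of the ventricular chains in the 2 experiments were not compared by a test. Myl3 had 88.4 to 108 CPM in IBR libraries and 97.6 to 173 CPM in CTL libraries, while it had 5.98 and 20.9 CPM in KO libraries and 32.4 and 5.60 CPM in WT libraries. Myl3 made up 1.16% to 1.32% of the sum of Myl3, Myl4 and Myl6 per kb in IBR libraries, 1.19% to 1.64% in CTL libraries, 0.128% and 0.727% in KO libraries and 0.396% and 0.0837% in WT libraries. Myl2 had 2.90 to 8.62 CPM in IBR and 0.626 to 3.17 CPM in CTL libraries, and at most 1.31 CPM in KO and 0.566 CPM in WT libraries. The ranges of Myl2 in CTL and KO libraries overlap. The slow heavy chain Myh7 stood at 78.1 to 133 CPM in IBR and 129 to 257 CPM in CTL libraries, and at 705 and 149 CPM in KO and 856 and 291 CPM in WT libraries.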
